A study of Mus musculus with 8 samples.

Results

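Quadriceps muscle of saline-injected control mice was described at baseline, across all genes and with no comparison against other groups. The 4 libraries titled as controls were used, of 8 libraries in the study, together with all 35494 gene symbols of the deposited count table. The mice were wild-type C57BL/6 males from The Jackson Laboratory, 8 weeks old at the start and group-housed. They were injected under the skin with sterile PBS, in a volume equal to that of the tumour-cell injections given to the other group. The treatment text shared by all samples speaks of injected cells and of muscle taken after 28 days, whereas the treatment label of these libraries is PBS. Each library came from the quadriceps of 1 mouse, and the design text gives 4 control mice. An order of single libraries is an order of single mice, and it carries no test.

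Skeletal muscle fibres of the mouse fall into slow type 1 fibres and fast fibres of types 2A, 2X and 2B, each named after its myosin heavy chain, the motor protein of the thick filament. Type 1 and 2A fibres rely on mitochondria and on fat as fuel, carry much myoglobin and resist fatigue. Type 2B fibres contract fastest and rely on glycogen and glycolysis. The quadriceps joins several muscle heads of unlike make-up, with a mostly fast, glycolytic surface and deeper portions that hold more oxidative fibres. Between the fibres lie blood vessels, nerve, fibroblasts, satellite cells, resident immune cells, fat and tendon.

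The defining genes of the labelled tissue were present in all 4 libraries. Myh4 (the type 2B myosin), Acta1 (skeletal alpha-actin), Ckm (muscle creatine kinase) and mt-Co1 (a mitochondrially encoded subunit of cytochrome oxidase) were all among the 10 genes with the largest share of counts. Hoxc10, a homeobox gene of the hindlimb, was present at 74.8 to 101 CPM (counts per 1000000 counts, scaled between libraries by edgeR's TMM factors). The heart genes Nkx2-5, Myl7, Nppa and Nppb had 0 counts in every library. The other 5 of the 9 listed heart and forelimb genes, led by Myl4 and Tbx5, had counts. That list summed to 5.30, 6.00, 6.84 and 3.10 CPM in controls 1 to 4. The Y-linked genes Ddx3y, Uty, Kdm5d and Eif2s3y were present in all 4 libraries. Total counts were 62.1, 59.8, 50.5 and 54.9 M in controls 1 to 4, and 17242 to 17588 symbols had at least 1 count. A mean of 11962 ± 29.98 symbols (SD, n = 4) reached 1 CPM in a library, and 11518 reached it in all 4. A count of 0 allows up to 3 counts, which is 0.0485 to 0.0579 CPM at these depths, for counting error only. No library went against its label. Controls 2 and 4 lay farthest apart in the whole transcriptome, so several values below are also given without one of them.

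A small set of contractile and mitochondrial genes held a large part of the counts. The top 10 symbols held 27.8%, 30.9%, 24.7% and 24.8% of all counts in controls 1 to 4, and the top 1000 held 76.4% ± 0.924 (SD, n = 4). Only 51, 40, 62 and 57 symbols together held 50% of the counts. Of the 25 genes with the largest mean share of counts, 10 were mitochondrially encoded and the other 15 were genes of the contractile machinery, calcium handling or energy supply. The largest share belonged to mt-Co1, with 4.85% ± 1.57 of all counts (SD, n = 4). Myh4 followed with 3.14% ± 1.25, Acta1 with 3.05% ± 0.489 and Atp2a1, the calcium pump of fast fibres, with 2.38% ± 0.431. Ckm held 2.04% ± 0.409, Tnnt3 (fast troponin T) 1.62% ± 0.209, Aldoa (aldolase of glycolysis) 1.37% ± 0.250 and Pvalb (parvalbumin, a calcium buffer of fast fibres) 0.973% ± 0.266. These shares describe where the counts went and not how levels compare between genes, since longer transcripts collect more counts.

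**Figure D1:**
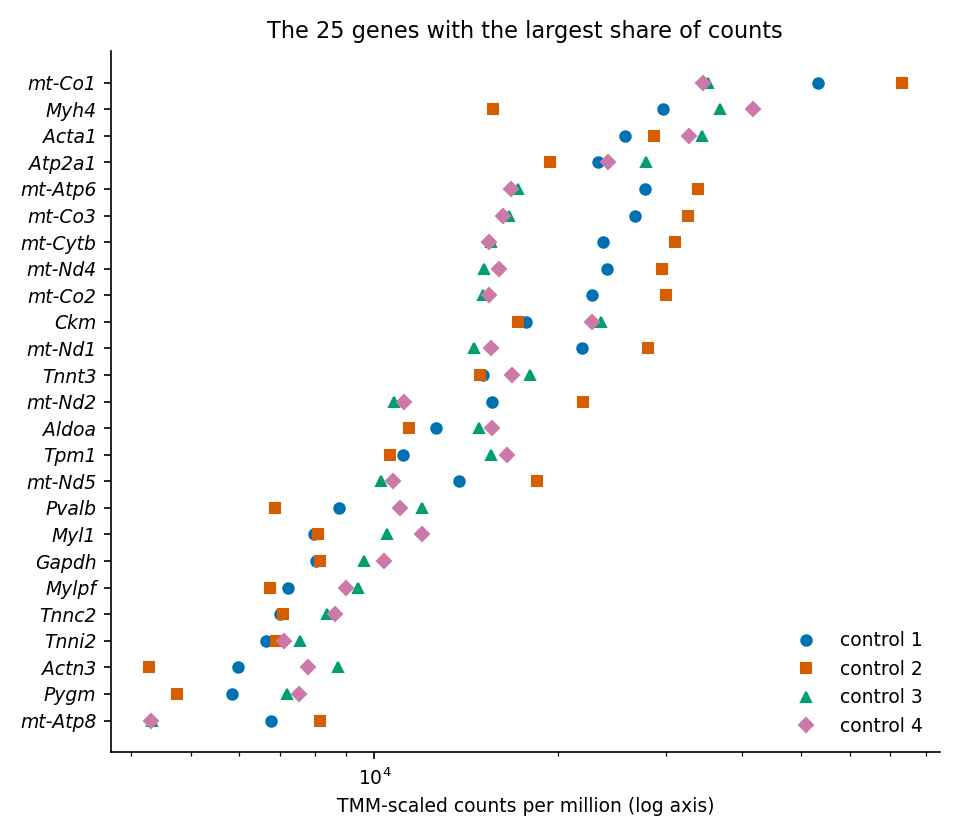
TMM-scaled CPM, on a log axis, of the 25 genes with the largest mean share of counts, with 1 point for each of the 4 control libraries. The mitochondrially encoded genes lie to the right in controls 1 and 2, and most contractile and glycolytic genes lie to the right in controls 3 and 4.

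Per length of the longest transcript, the order was different. On a scale of counts per base scaled to the same total as CPM, mt-Atp6 (a subunit of ATP synthase) stood highest at 54979 ± 12380 (SD, n = 4). Acta1, in 6th place at 34372 ± 8125, was the highest of the nuclear genes. Tnnt3 followed among these at 24486 ± 5093, and Tnnc2 (fast troponin C), Mylpf (fast regulatory light chain), Pvalb and Tnni2 (fast troponin I) lay between 18167 and 14939. Myh4, whose transcript has 6016 bases, stood in 25th place at 8635 ± 3937. Its 4 values were 7689, 3539, 10825 and 12487. Among the first 25 places the SDs of neighbours overlapped throughout, and the order also depends on the transcript chosen for each gene. Mitochondrial ribosomal RNAs and the nuclear RNAs Malat1, Neat1 and Meg3 are not listed in the table and were not analysed here.

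Mitochondrially encoded messenger RNA differed widely between the mice. It took 24.3%, 29.7%, 16.3% and 16.8% of counts in controls 1 to 4, with a mean of 21.8% ± 6.44 (SD, n = 4). Controls 1 and 2 were above controls 3 and 4 for all 13 mitochondrial messenger RNAs, an order that 25.1% of all symbols at a mean of 1 CPM or more had. The values of mt-Co1 were 53280, 73134, 35172 and 34584 CPM. The proportions among the 13 hardly moved: mt-Co1 made up 21.8%, 23.1%, 22.1% and 21.5% of the mitochondrial total. Over the 13 genes, the coefficient of variation (CV, the SD over the mean) of that proportion had a median of 3.74%, from 1.03% for mt-Co2 to 15.9% for mt-Nd6, the only one of them encoded on the light strand. Gm29216, a predicted gene, shared 97.2% of its 31-base words with mt-Co1, and its estimated counts cannot be told apart from those of mt-Co1.

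The adult myosin heavy chain genes set the fibre type of a muscle and were the most informative family here. Myh4, Myh1 (type 2X) and Myh2 (type 2A) are neighbours on chromosome 11, whereas Myh7 (type 1) lies on chromosome 14. Their promoter windows, 250 bases before to 50 after the start, were taken from RefSeq (build GRCm38.p6, not the build GRCm39 of the counts) and are shown for the 3 fast genes because their levels ran in opposite orders over the mice. Capitals mark the TATA box (TATAAA) and the E-box (CANNTG, the motif of myogenic helix-loop-helix factors), both searched on both strands, so that TTTATA is a TATA match on the other strand. The windows are, on the plus strand, chr11:67237562-67237861 for Myh4, chr11:67199852-67200151 for Myh1 and chr11:67170777-67171076 for Myh2.
Myh4: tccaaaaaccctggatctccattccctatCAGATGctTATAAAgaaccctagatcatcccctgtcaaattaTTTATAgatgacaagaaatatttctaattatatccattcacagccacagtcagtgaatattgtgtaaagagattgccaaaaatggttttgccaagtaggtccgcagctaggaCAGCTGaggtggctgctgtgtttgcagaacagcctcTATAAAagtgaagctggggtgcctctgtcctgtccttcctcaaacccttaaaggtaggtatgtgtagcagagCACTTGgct
Myh1: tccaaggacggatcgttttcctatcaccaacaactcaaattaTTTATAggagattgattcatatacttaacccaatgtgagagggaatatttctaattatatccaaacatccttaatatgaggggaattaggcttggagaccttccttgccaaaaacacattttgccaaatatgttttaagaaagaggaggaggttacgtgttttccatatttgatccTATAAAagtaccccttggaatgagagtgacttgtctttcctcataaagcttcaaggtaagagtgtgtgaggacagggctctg
Myh2: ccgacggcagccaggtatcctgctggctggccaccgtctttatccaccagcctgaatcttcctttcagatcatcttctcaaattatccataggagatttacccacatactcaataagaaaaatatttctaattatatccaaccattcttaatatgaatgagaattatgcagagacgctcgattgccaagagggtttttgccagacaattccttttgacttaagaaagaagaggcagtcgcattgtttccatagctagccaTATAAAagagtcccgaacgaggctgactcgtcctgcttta
The Myh4 window held 3 TATA matches and 3 E-boxes, the Myh1 window 2 TATA matches and the Myh2 window 1, with no E-box in Myh1 or Myh2. RefSeq lists 2 starts for Myh7, and both of its windows held 2 E-boxes and no TATA match. Of 32851 promoter windows of this length, 13.6% held a TATA match and 72.3% an E-box. These matches describe letters in a window and not sites in use.

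The muscle was dominated by type 2B myosin in all 4 mice, to a degree that differed between them. Of all counts on the 4 adult myosin genes, Myh4 held 86.3%, 67.6%, 93.8% and 99.1% in controls 1 to 4, a mean of 86.7% ± 13.8 (SD, n = 4). Leaving out 1 library at a time gave means between 82.6% and 93.1%. Myh1 held 9.99%, 22.1%, 4.68% and 0.882%, and Myh2 held 3.66%, 9.56%, 1.299% and 0.0216%. Myh7 stayed under 1% throughout, with 0.00615%, 0.771%, 0.188% and 0.000125%. Shares per length differed little from shares of counts, at 86.8% ± 13.7 for Myh4. The 3 fast genes share sequence, so estimated counts can be passed between them: 19.4% of the 31-base words of Myh4 also occur in Myh1, and 28.1% of those of Myh1 in Myh2.

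**Figure D2:**
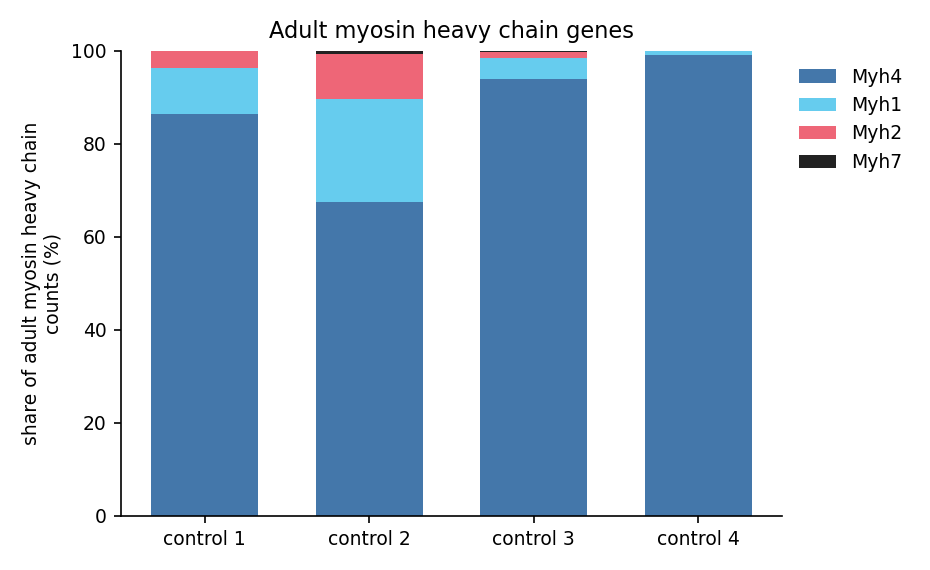
Stacked bars of the share (%) of adult myosin heavy chain counts held by Myh4, Myh1, Myh2 and Myh7 in each of the 4 control libraries. Myh4 holds between 67.6% and 99.1%, and Myh1 and Myh2 together are largest in control 2.

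In scaled counts, Myh4 stood at 29698, 15653, 36874 and 41694 CPM. Myh1 ran the other way, at 3436, 5118, 1840 and 371 CPM, a 13.8-fold range. Myh2 had the widest range of the 3 fast genes, at 1260, 2215, 511 and 9.07 CPM, the highest 244-fold above the lowest. The order of the mice was the same for Myh1 and Myh2, from control 2 through 1 and 3 to 4, and was reversed for Myh4. Myh7 had 2.12, 179, 73.9 and 0.0525 CPM, the last resting on 3 counts. Control 3 was thus above control 1 for the slow myosin and below it for Myh1 and Myh2. The embryonic Myh3 and neonatal Myh8 myosins, which appear in forming or regenerating fibres, were at 0.0175 to 0.908 CPM and 1.78 to 2.95 CPM.

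The slow partners of the contractile and calcium-handling genes showed the widest spread of any muscle gene group. All 11 listed slow fibre genes were highest in control 2 and lowest in control 4, whereas 19.9% of the 12014 symbols at a mean of 1 CPM or more had that order. Myl2, the slow and cardiac regulatory light chain, was at 7.92, 152, 34.7 and 0.0525 CPM. Tnnt1 (slow troponin T) was at 3.33, 103, 29.4 and 0.158 CPM, and Tnni1 (slow troponin I) at 0.856, 51.2, 10.9 and 0.0525 CPM. In control 4, 5 of the 11 genes had under 10 counts: Myl2 and Tnni1 with 3 each, Tnnc1 (slow troponin C) with 4, Myl3 with 5 and Tnnt1 with 9. A fold against such counts was not formed.

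Other members of the list kept a clear level in every mouse. Mybpc1 (slow myosin-binding protein C) was at 1100, 1432, 765 and 205 CPM. Actn2, an alpha-actinin of the Z-disc that fast fibres of types 2A and 2X also use, was at 532, 1011, 324 and 130 CPM. Atp2a2, the calcium pump of slow fibres and of many other cells, was at 39.5, 186, 80.8 and 37.6 CPM. The slow genes split into sets by the order of controls 1 and 3. For 7 of 11 (Myl2, Myl3, Tnnt1, Tnni1, Tnnc1, Atp2a2 and Tpm3) control 3 was above control 1, as for Myh7. For Casq2, Mybpc1, Actn2 and Myoz2 control 1 was above control 3, as for Myh2. Over all symbols at this level, control 3 was above control 1 for 48.9%. The median CV of the 11 was 113%, against 11.2% over all symbols, and 84.1% without control 4.

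Fast genes varied much less and in the other direction. All 10 listed fast fibre genes were higher in controls 3 and 4 than in controls 1 and 2, an order that 24.2% of all symbols had. Their median CV was 18.2%. Atp2a1 was at 23230, 19416, 27842 and 24134 CPM, and Tnni2 at 6653, 6898, 7557 and 7103 CPM. Actn3, the alpha-actinin of the fastest fibres, was at 5985, 4269, 8727 and 7797 CPM. These 10 and the 11 slow genes kept their orders when libraries were scaled by total counts, by DESeq2 size factors or without mitochondrial genes.

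**Figure D3:**
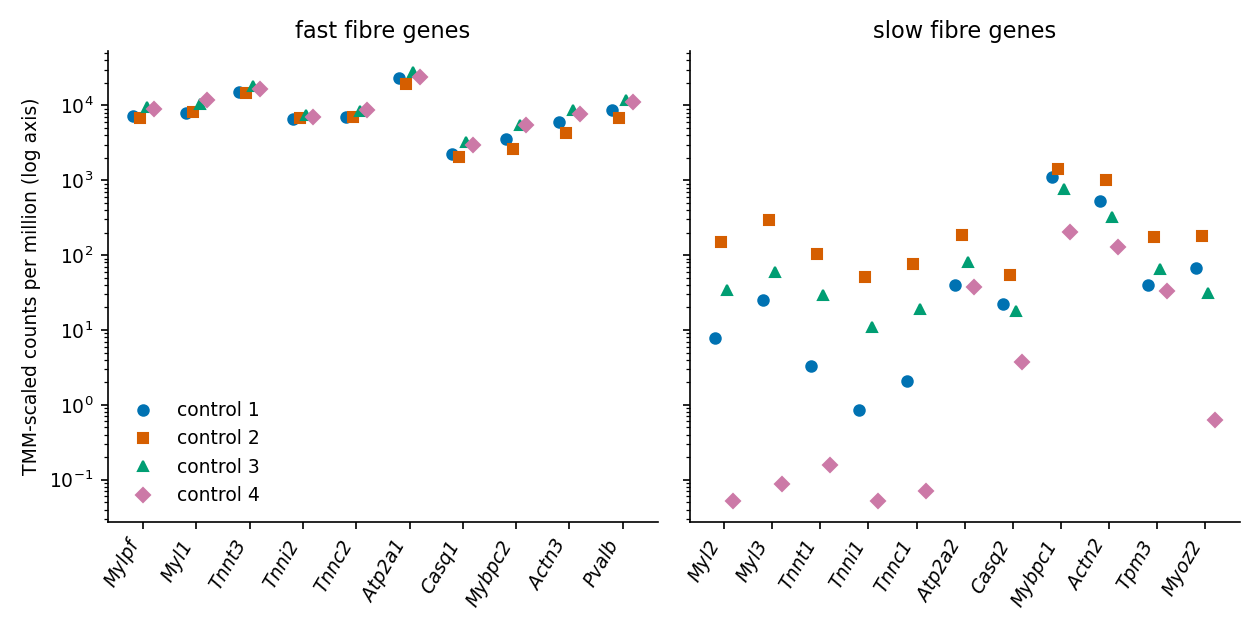
TMM-scaled CPM, on a log axis, of 10 fast (left) and 11 slow (right) fibre genes, with 1 point for each control library. The fast genes lie close together in the 4 libraries, and the slow genes spread over several orders of magnitude with control 2 highest and control 4 lowest.

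Set within 9 pairs of a fast and a slow gene of the same function, the slow partner took a small share of the counts. Averaged over the 9 pairs it was 3.74%, 7.39%, 2.01% and 0.613%, a mean of 3.44% ± 2.93 (SD, n = 4). Without control 2 the mean was 2.12%, and without control 4 it was 4.38%. The median of the 9 pairs was far lower, at 0.170%, 2.20%, 0.368% and 0.000940%, and it set control 3 above control 1. The largest slow shares were those of Mybpc1 within myosin-binding protein C, at 18.8% ± 13.9, and of Actn2 within alpha-actinin, at 8.13% ± 7.84, and these carry the average. Without control 2 they were 13.2% and 4.46%. The other 7 pairs had mean slow shares of at most 1.11%, and of at most 0.550% without control 2. Among tropomyosins, which cover the myosin-binding sites of actin, Tpm2 took 33.5%, 41.5%, 26.4% and 17.7% of counts and Tpm3 under 1%.

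Other sarcomere genes were closer between mice, with a median CV of 22.0% over 25 listed genes. Des (desmin of the intermediate filaments) had a CV of 5.39%, Ldb3 (a Z-disc protein) 5.12% and Acta1 12.9%. At a mean of 10 CPM or more, 5 genes had a CV over 50%, in opposite groups. Myom3, Csrp3 and Ankrd2, sarcomere or stretch-linked genes with more expression in slow or oxidative fibres, followed the slow genes. Ankrd2 was at 71.2, 181, 35.9 and 1.296 CPM, and Csrp3 at 32.4, 54.9, 12.3 and 0.175 CPM. Actc1 (cardiac alpha-actin, also made in developing skeletal muscle) and Mybph (myosin-binding protein H) were instead high in controls 3 and 4. Actc1 was at 66.8, 133, 513 and 682 CPM and Mybph at 39.3, 34.8, 285 and 333 CPM. Actc1 and Acta1 shared none of their 31-base words. Of 19 genes of excitation and calcium handling, 14 were highest in control 3, as was 20.1% of all symbols. Their median CV was 14.6%, against 11.2% over all symbols. Ryr1, the calcium release channel, was at 2805, 1880, 3188 and 2916 CPM, and Cacnb1, a subunit of the voltage sensor, had a CV of 2.73%.

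Most listed nuclear genes of oxidative metabolism had the order of the type 2A myosin over the mice. The mitochondrial share was likewise higher in controls 2 and 1, but it was lowest in control 3, at 16.3% against 16.8% in control 4. Of 79 nuclear genes of the respiratory chain, 75 were highest in control 2 and lowest in control 4, and the 75 had the full order of controls 2, 1, 3 and 4, which 14.5% of all symbols had. The list took 3.13%, 4.03%, 2.39% and 2.00% of the nuclear counts. Atp5f1b, a catalytic subunit of ATP synthase, was at 1971, 2540, 1722 and 1412 CPM, a range far narrower than that of the slow contractile genes. The list's median CV was 26.5%. Mb (myoglobin, the oxygen store of oxidative fibres) was much more variable, at 2068, 4252, 873 and 185 CPM, a 23.0-fold range. Cs (citrate synthase) was at 686, 869, 632 and 564 CPM.

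Genes of fatty acid use had that same full order in 16 of 20 cases. Fabp3, the fatty acid carrier of oxidative muscle, was at 473, 911, 237 and 119 CPM. Lpl (lipoprotein lipase) was at 643, 1046, 315 and 318 CPM, and Cd36 (a fatty acid transporter) at 278, 402, 194 and 179 CPM. Pdk4 and Ucp3, both known to be induced by fasting, did not follow. Pdk4 was at 593, 429, 409 and 612 CPM, and Ucp3 at 110, 67.1, 72.03 and 225 CPM. The mitochondrial creatine kinase Ckmt2 was with the oxidative genes, at 1117, 2010, 700 and 494 CPM, and Ckm with the fast ones, at 17741, 17162, 23500 and 22756 CPM.

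Most glycolytic genes were higher in the mice with more type 2B myosin. Of 20 genes of glycolysis and glycogen, 14 were higher in controls 3 and 4 than in controls 1 and 2, as were 24.2% of all symbols, and 5 were lower, as were 25.1%. Aldoa was at 12623, 11403, 14838 and 15580 CPM and Pygm (muscle glycogen phosphorylase) at 5839, 4753, 7202 and 7529 CPM. Pfkm (phosphofructokinase), with a CV of 6.87%, and Tpi1, with 6.95%, were among the closest. Of the 5, Hk2 (hexokinase), Gys1 (glycogen synthase), Ugp2 and Slc2a4 (the insulin-responsive glucose transporter) had CVs of 5.81% to 18.3%. The last, Ldhb, the lactate dehydrogenase subunit of oxidative tissue, varied far more, at 183, 347, 70.9 and 8.51 CPM, while Ldha was at 1751, 1692, 2171 and 2257 CPM. Nnt, a mitochondrial transhydrogenase that carries a deletion in some C57BL/6 substrains, was present at 19.0, 34.3, 12.3 and 6.53 CPM. This level does not tell whether the gene is intact.

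Markers of cells other than fibres were summed by cell type, and bulk RNA cannot tell fewer cells of a type from less RNA per cell. Summed over its listed markers, the fibroblast and fibro-adipogenic progenitor list stood at 3163, 2440, 3478 and 3470 CPM, of which Gsn (gelsolin, which many cells make) held 38.1%. Dcn (decorin) was at 681, 508, 666 and 536 CPM, Pdgfra (the defining receptor of these progenitors) at 40.4, 28.4, 40.9 and 40.9 CPM, and Col3a1 (a fibrillar collagen) at 205, 195, 258 and 369 CPM. The endothelial list, at 1291, 1843, 1190 and 1331 CPM, was highest in control 2, as were 16 of its 20 genes and 33.8% of all symbols. Pecam1, the pan-endothelial adhesion molecule, was at 80.2, 108, 71.1 and 78.5 CPM. Kdr, the main receptor for vascular growth factor, was at 55.6, 71.2, 30.96 and 33.5 CPM. Smooth muscle and pericyte genes summed to 1095, 1223, 938 and 955 CPM. Their median CV was 19.8%, against 11.2% over all symbols. Rgs5, the member with the most counts, was at 459, 607, 353 and 303 CPM. Haemoglobin and other red cell genes stood at 638, 1119, 657 and 561 CPM, highest in the library that was also highest for endothelial, slow and mitochondrial genes; whether blood content differed was not tested.

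Fat, skin and liver genes marked single libraries, and tendon genes were highest in control 3. The adipocyte list was at 1200, 1141, 1280 and 2710 CPM. Its defining members were higher in control 4 by more than the sum shows, because the sum is carried by Car3, Scd1 and Pnpla2, which muscle fibres may also express. Adipoq, the adipocyte hormone adiponectin, was at 9.69, 6.07, 12.8 and 77.4 CPM. Cfd (adipsin) was at 54.3, 34.0, 64.9 and 446 CPM, Cidec (a lipid droplet protein) at 7.63, 5.04, 10.1 and 68.0 CPM, and Plin1 (perilipin of fat cells) at 8.21, 5.39, 12.6 and 51.9 CPM. Ucp1 of brown fat had counts in controls 1 and 2, at a mean under 1 CPM, and 0 counts in controls 3 and 4. Of 12 listed genes at a mean of 1 CPM or more, 10 were highest in control 4, as was 30.5% of all symbols. The median CV was 90.4%, and 38.6% without control 4.

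In the same library, epidermal keratins appeared. Krt5, Krt14, Krt15, Krt1, Krt17, Dsp and Dsg1a, genes of the epidermis and its desmosomes, had 0 counts in controls 1, 2 and 3, and in control 4 they stood at 0.701 to 9.44 CPM. The whole list of 13 genes summed to 11.4, 9.83, 10.1 and 47.8 CPM. Across the transcriptome, 36 symbols had at least 10 counts in control 4 and 0 in the other libraries, of which 9 were keratins. The corresponding counts were 5 for control 1, 12 for control 2 and 20 for control 3.

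In control 3 the symbols seen alone included genes of liver. A set of 25 liver genes, written after these symbols had been seen, was therefore looked at. Of the 25, 23 were highest in control 3, as was 20.1% of all symbols. However, 10 of the 25 are themselves symbols seen in control 3 alone, so that count was partly fixed in advance. Cyp2e1, a cytochrome of liver and fat that is not in the set, was highest in control 4, at 136 CPM. Mup22, of the same family as Mup3 and Mup20 of the set, was also highest in control 4, at 75.5 CPM. Alb (serum albumin) had 5, 9, 340 and 15 counts in the 4 libraries. Serpina1c (an antitrypsin) had 62 counts, Gc (vitamin D-binding protein) 42 and Cyp3a11 (a drug-metabolising cytochrome) 24 counts in control 3, all with 0 in the others. The whole set summed to 28.2, 27.2, 81.3 and 162 CPM, highest in control 4 through Hp and Trf. Trf alone was at 22.3, 21.5, 42.6 and 122 CPM. Without Hp and Trf, which fat and muscle also express, the set summed to 0.662, 0.908, 23.5 and 1.17 CPM. Gm10359, the leading symbol seen in control 3 alone, shares all of its 31-base words with Gapdh, and its 2607 estimated counts cannot be told apart from Gapdh. Tendon genes were also highest in control 3, in 9 of 10 cases, as was 20.1% of all symbols. Their sum was 342, 214, 576 and 225 CPM, so control 1 was also above controls 2 and 4. Fmod (fibromodulin) was at 160, 85.6, 264 and 86.8 CPM and Tnmd (tenomodulin, a defining tendon marker) at 7.85, 6.18, 17.0 and 5.97 CPM. The list's median CV was 49.8%, and 29.9% without control 3. The fibre type genes of the same libraries are given above; the source of the fat, skin and liver transcripts, and their part in other values, was not tested.

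**Figure D4:**
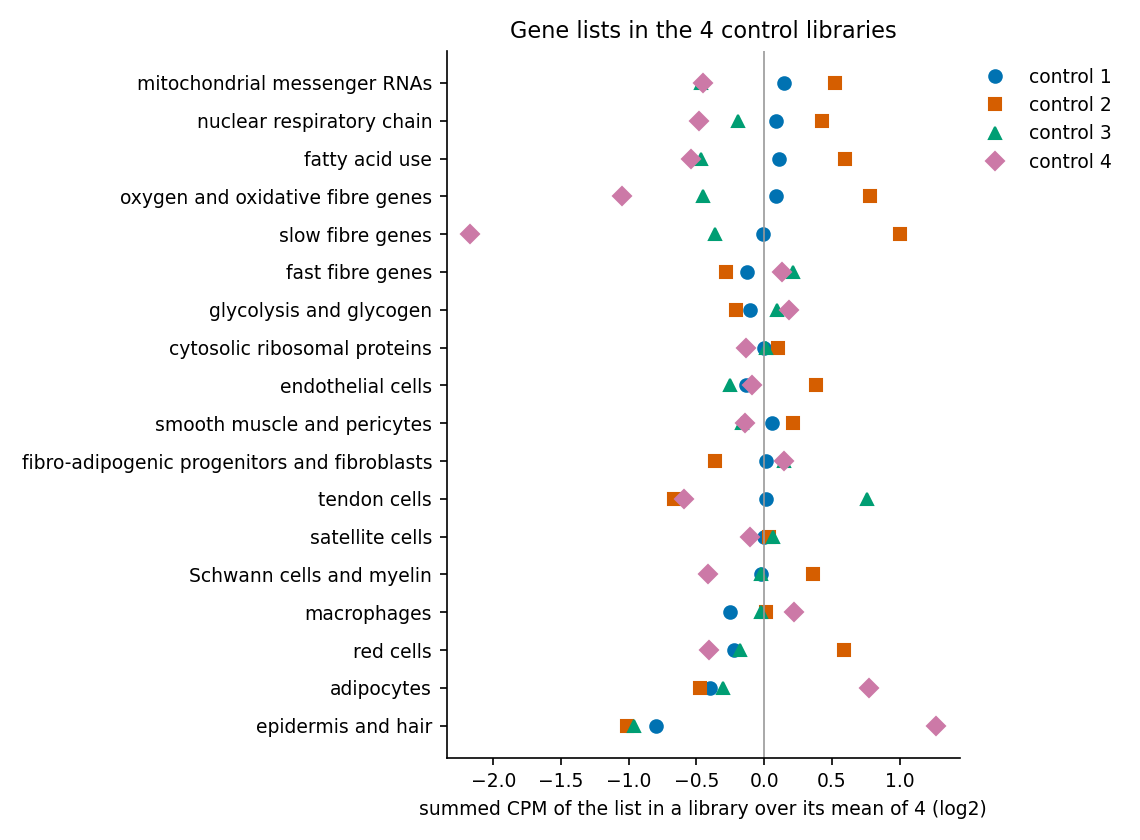
Summed CPM of 18 gene lists in each control library relative to the mean of the 4, on a log2 scale, where 0 is the mean. Slow, oxidative and mitochondrial lists are highest in control 2, adipocyte and epidermal lists in control 4 and tendon genes in control 3, while ribosomal proteins lie close to 0, as does the satellite cell list, of whose sum Des holds 95.9%.

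Most immune cell markers were low in control muscle. Macrophage genes summed to 152, 183, 179 and 212 CPM, and 14 of the 15 at a mean of 1 CPM or more were highest in control 4, as was 30.5% of all symbols. Adgre1 (the F4/80 antigen), at 3.05, 3.13, 3.13 and 3.54 CPM, and Csf1r, at 15.8, 16.3, 14.8 and 20.02 CPM, were close in all 4. T and NK cell genes summed to only 0.856 to 1.28 CPM, with Cd3e at 0.0356 to 0.0701 CPM, at or near what a count of 0 allows. Neutrophil genes summed to 5.80 to 12.4 CPM. Ngp, Camp and Ltf, granule genes of young neutrophils, had 0 counts in controls 1 and 4 and 0.178 to 1.18 CPM in controls 2 and 3. The B cell marker Ms4a1 was at 0.158 to 0.328 CPM, whereas Ighm stood at 95.0, 90.6, 76.7 and 174 CPM. Mast cell genes summed to 12.02, 16.6, 7.16 and 10.7 CPM, with Mcpt4 (a mast cell protease) at 2.26 to 4.13 CPM. Bone and cartilage genes summed to 21.6 to 38.5 CPM, and Bglap2 (osteocalcin) and Col10a1 (a collagen of growth-plate cartilage) had 0 counts in all 4. The sum was carried by Alpl, Acp5 and Ctsk, which other cells also make.

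Apart from Des, which fibres make and which held 95.9% of the sum, the satellite cell list was low, its other 12 genes summing to 122, 131, 105 and 115 CPM. Pax7, the defining transcription factor of satellite cells, was at 2.16, 3.47, 3.48 and 2.63 CPM. Myod1, the myogenic factor enriched in fast muscle, was at 36.5, 28.0, 21.6 and 34.1 CPM. Mbp, a protein of myelin, was at 19.1, 31.2, 18.9 and 10.8 CPM. Musk, the kinase that organises the neuromuscular junction, was at 12.9, 13.2, 11.6 and 40.2 CPM. Its junction partners Rapsn, at 21.4, 22.8, 21.8 and 23.8 CPM, and Chrne, the adult acetylcholine receptor subunit, at 6.88, 9.58, 9.06 and 11.4 CPM, did not stand apart to that degree. The fetal receptor subunit Chrng, which returns after denervation, was at 0.0323 to 0.160 CPM.

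Genes that respond to handling, time of day and feeding also differed between the mice. Among the 23 listed genes of glucocorticoid response, fasting and atrophy, 15 were highest in control 3, as was 20.1% of all symbols. Fkbp5, a direct target of the glucocorticoid receptor, was at 57.3, 47.5, 115 and 46.1 CPM. Foxo1 was at 27.3, 33.2, 70.8 and 32.6 CPM, and Trim63, an atrophy ubiquitin ligase, at 271, 253, 427 and 252 CPM. Fbxo32, the other ligase, did not follow, at 483, 282, 397 and 455 CPM. Of clock genes, Dbp was at 36.9, 35.1, 69.0 and 76.8 CPM and Nr1d1 at 228, 182, 212 and 298 CPM, while Clock had a CV of 5.55%. The immediate early gene Jun was at 115, 95.9, 82.7 and 71.6 CPM, and Dusp1 had a CV of 6.53%. Of 21 immediate early genes at a mean of 1 CPM or more, 15 were lowest in control 4, as was 30.9% of all symbols. Of heat shock genes, Hspa8 had a CV of 7.37%, while Hspb7, a small chaperone of heart and skeletal muscle, was at 274, 547, 190 and 38.9 CPM. Median CVs were 20.2% for the clock list, 31.2% for immediate early genes and 19.9% for heat shock genes. Over all symbols the median was 11.2%. Cell cycle genes were low and even, summing to 50.9, 44.1, 48.8 and 52.4 CPM. The interferon-stimulated list was at 127, 187, 137 and 196 CPM. Of its 26 genes at a mean of 1 CPM or more, 19 were highest in control 2 and 5 in control 4. Over all symbols these shares were 33.8% and 30.5%. The sum was highest in control 4 through its member Ifi27l2a, at 6.27, 5.70, 10.9 and 57.7 CPM. Without it the list stood at 120, 181, 126 and 139 CPM.

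Over the 12014 symbols at a mean of 1 CPM or more, the median CV between control mice was 11.2%, with quartiles of 6.85% and 19.2%. A CV under 10% was seen for 43.7% of them and one over 50% for 3.48%, which is 418 symbols. The CV expected from counting alone had a median of 3.43%, less than the spread between mice. The common biological coefficient of variation, edgeR's estimate over 13385 genes, was 20.6%. The median CV was 15.1% at 1 to 10 CPM, 9.01% at 10 to 100 CPM, 11.4% at 100 to 1000 CPM and 20.2% for the 77 symbols above 1000 CPM. The most abundant genes were therefore not the steadiest.

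Among the 7335 symbols at a mean of 10 CPM or more, 154 had a CV over 50%, and 71 of these were highest in control 2 and 69 in control 4, as were 35.3% and 29.3% of the 7335. The 154 included all 11 slow fibre genes, 6 adipocyte genes and 5 of fatty acid use, and 44 of them stood on any list. The 20 with the highest CV and a proper symbol were slow contractile genes, adipocyte genes and a few others. The slow genes were Tnni1, with the highest CV at 153%, Tnnc1, Myl2, Myl3, Tnnt1, Myh7, Myoz2 and Ankrd2. Bdh1, a mitochondrial enzyme of ketone body metabolism, had their order, at 26.7, 88.8, 11.1 and 0.630 CPM. Genes high in control 4 were Cyp2e1 (a cytochrome of liver and fat), at 14.6, 7.16, 11.2 and 136 CPM, Pck1 (gluconeogenesis, and glycerol synthesis in fat), at 11.9, 5.84, 7.09 and 88.1 CPM, and Cidec, Cfd, Adipoq, Plin1, Mup22, Ifi27l2a and Hp. Cish, a target and inhibitor of cytokine signalling through STAT5, was unlike both sets, at 22.6, 31.8, 4.36 and 99.2 CPM.

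At the other end, Psma4, a subunit of the proteasome core, was at 79.9, 79.8, 79.7 and 80.0 CPM, a CV of 0.148%. Rps26 and Ube2d3 followed with 0.467% and 0.559%, and then Sat1, Syf2, Agps, Scaf1, Sgf29 and Spcs1, all under 0.73%. These CVs lie below what counting alone gives, 1.49% for Psma4, and with 4 libraries the smallest values are picked from a wide range of genes, so they do not rank genes as references. The cytosolic ribosomal proteins, 78 genes, had a median CV of 7.17%, or 4.14% without control 4, and their sum was 14281, 15312, 14437 and 13014 CPM. Their sum was highest in control 2 under TMM scaling and in control 3 under scaling by total counts.

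**Figure D5:**
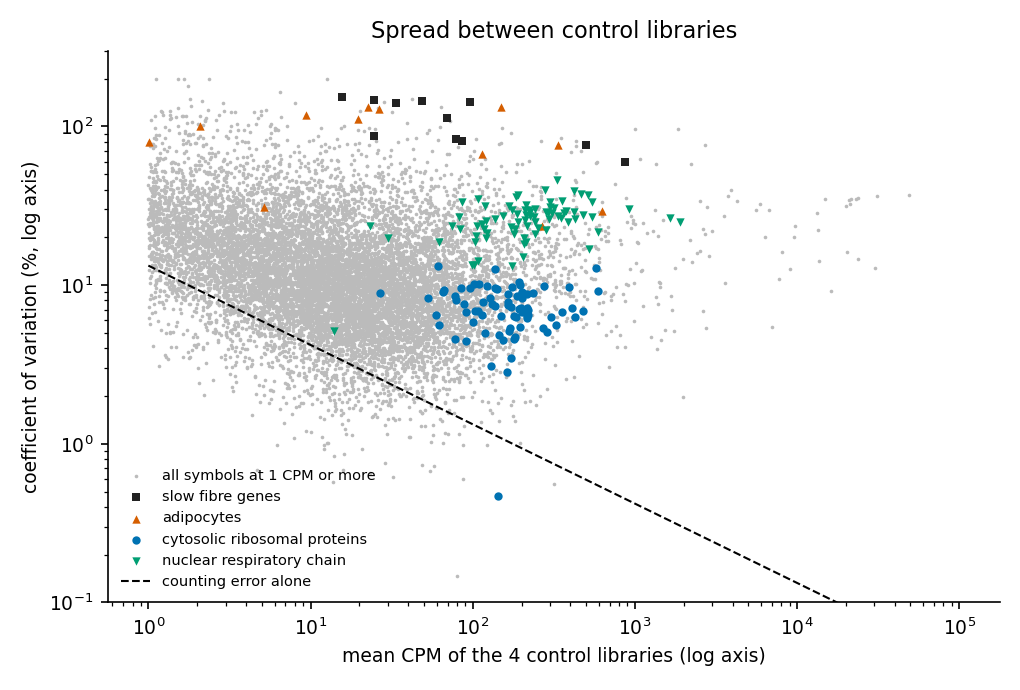
Coefficient of variation (%) against the mean CPM of the 4 control libraries, both on log axes, for the 12014 symbols at 1 CPM or more, with 4 gene lists in colour and the counting error as a dashed line. Slow fibre genes lie at 59.8% to 153% and ribosomal proteins cluster near 7.17%.

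Between pairs of libraries, the SD of the log2 difference ran from 0.37 for controls 1 and 3 to 0.72 for controls 2 and 4. Over 2-fold differences were seen for 173 symbols between controls 1 and 2 and for 897 between controls 2 and 4. In a principal component analysis, the leading axis carried 66.7% of the variance and placed control 2 at -34.3 and control 4 at 43.8, with controls 1 and 3 at -10.6 and 1.14. The next, with 20.7%, set control 3 apart from the others at -26.4. In each of the 6 pairs, chi-square divided by its degrees of freedom was at least 63.3, well above sampling noise, so no library was a copy of another.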

How the data were processed

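Per the labels' protocols, quadriceps RNA was isolated with the RNeasy Mini kit and made into libraries with the Universal Plus mRNA-seq kit. Tools named in the submitters' processing notes are Salmon 1.10.3, fastp 1.0.1, MultiQC 1.30, FastQC 0.12.1 and R 4.4.3, with the genome build GRCm39. What each did and with which annotation release and strand setting was not given in the sources used here. Deposited values are estimated counts for each gene without scaling, and 49.1% of the nonzero control values carry a fraction. Salmon can divide reads of similar genes by a model, so paralogs and pseudogene copies are uncertain, as are overlapping genes on opposite strands.

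Of 35667 table entries, 144 without a symbol were left out (0.00271% to 0.00403% of counts), and 26 repeated symbols were summed. Estimated counts were then rounded to integers. The libraries of the other group were not analysed here. CPM was computed with TMM factors in edgeR 4.0.16 under R 4.3.3, log2 values with a prior count of 2, and the biological coefficient of variation from a design with an intercept alone after filterByExpr (minimum count 10, minimum total 15). DESeq2 1.42.0 size factors were an alternative. Per-length levels used the longest transcript of GENCODE M21, an earlier annotation, which held 31795 of the 35494 symbols. With 1 group, no comparison of groups was tested and no p-value is given. Dixon's critical values served to list outlying libraries and chi-square values to look for copied libraries. Spread and dispersion estimates were tested on simulated data.

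The members and the 43 gene lists (703 genes) were chosen with earlier results of these data known. The liver set was written later, after its leading genes had been seen. Genes named were the 25 with the largest share of counts, the 20 with the highest and 10 with the lowest CV at a mean of 10 CPM or more with a proper symbol, all fibre type genes, and up to 4 of each other list by mean CPM plus cell type markers at 0 counts. Other list members named (defining markers, and members with the widest or narrowest spread) were picked after their values had been seen. A few genes that these rules pick out are not given in the text, and 1 was left out of its list and sums. Alternatives left out each library, changed the scaling, left out mitochondrial genes, changed the filter on low values, the prior count and the length used.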

Additional observations from a re-analysis of the deposited data

Results flagged for a closer look

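In a group of 4 libraries, a value was listed where the gap between the highest or lowest library and its neighbour exceeded Dixon's critical share of the whole range. Of 272 measures, 25 exceeded it. Chance alone does so in about 1 group of 20, and many of these genes belong to the same lists, so they are not separate findings. That rate also does not hold for the genes that were named for their high CV, among them Cyp2e1, Pck1, Cidec, Cfd, Adipoq, Plin1 and Ifi27l2a.

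Control 4 was far above the others in 17 cases. They were the adipocyte list at 2710 CPM with Cyp2e1 at 136, Pck1 at 88.1, Cidec at 68.0, Cfd at 446, Adipoq at 77.4 and Plin1 at 51.9 CPM, and the epidermal list at 47.8 CPM with Krt5 at 9.44 and Krt15 at 6.62 CPM. Mmp9 at 5.66 and Acp5 at 15.4 CPM stand on the neutrophil and bone lists, whose other members summed to 2.35 and 15.9 CPM in control 4, the lowest sums of the 4 libraries. Musk at 40.2, Myog at 6.69 and Runx1 at 3.89 CPM are genes that respond to loss of nerve input. Myog and Runx1 stand on the denervation and regeneration list, which summed to 30.3, 32.2, 38.4 and 41.1 CPM. Of its 5 genes at a mean of 1 CPM or more, 3 were highest in control 4 and 2 in control 3. Over all symbols these shares were 30.5% and 20.1%. Ifi27l2a was at 57.7 CPM and Dmp1, a bone matrix gene, at 1.40 CPM.

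Control 2 was far above the others in 6 cases. The slow share was 0.947% for Atp2a2, 2.20% for Myl2 and 3.57% for Myl3, with a median over the 9 pairs of 2.20%. Hbb-bs (a beta-globin) stood at 427 CPM and Cd79a (a B cell gene) at 0.534 CPM. Cd79a rests on few counts, 13, 30, 8 and 11 in controls 1 to 4. A low library was listed for Sgf29, at 15.7 CPM in control 2, and for Cnp, a myelin gene, at 8.42 CPM in control 4. No cause was tested for any of them.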

How the results depend on the processing

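Of 73 alternatives of the main values, 9 moved them. Leaving out 1 of 4 libraries cannot move a mean by as much as its SD, so 20 of the 73, and 64 of the 96 alternatives of the cell type lists, say nothing about stability. None of the other 32, which changed the scaling, moved a cell type list by more than the SD. The TMM factors ran from 0.940 to 1.04, so rescaling can hardly move a mean of 4. These 32 therefore say little about stability either. The epidermal list went from 19.8 to 10.3 CPM without control 4. The number of symbols that hold 50% of the counts, 52.5 on average, became 193.25 without mitochondrial genes, 16.25 per length of the longest transcript and 22.5 per median length. The top 10 share of 27.0% became 22.6% without mitochondrial genes, 39.3% per longest and 32.9% per median length. The median transcript length was chosen after seeing the data. The 418 symbols with a CV over 50% became 154 at a mean of 10 CPM or more and 1690 with every symbol that had a count in all libraries. Leaving out 1 library at a time gave 220 to 551, with 220 without control 4. The median CV stayed between 8.84% and 14.6% and the common biological coefficient of variation between 16.8% and 23.5%. No paired analysis was possible because only 1 group was described. The number of mice, 4, limits the precision of every spread, genes at a few counts are limited by depth, and the order of ribosomal protein sums depends on scaling.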

Other observations

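Among genes on none of the lists, at a mean of 50 CPM or more, 34 had a CV over 50%. The genes named here were chosen from them after their values had been seen. Polyamines are small charged molecules made from ornithine. Odc1, the first enzyme of their synthesis, was at 183, 143, 142 and 426 CPM in controls 1 to 4. Amd1, which supplies the aminopropyl group, was at 931, 791, 1147 and 2494 CPM, and Smox, which oxidises spermine, at 306, 293, 311 and 960 CPM.

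Several oxidative and structural genes had the order of the type 2A myosin, with control 2 highest and control 4 lowest. Fhl1 (a LIM-domain protein of muscle) was at 577, 821, 266 and 76.6 CPM, Lmod2 (an actin filament nucleator) at 108, 219, 84.9 and 8.48 CPM, and Vgll2 (a transcriptional cofactor of muscle) at 84.6, 122, 57.6 and 11.6 CPM. Idh2 (mitochondrial isocitrate dehydrogenase) was at 146, 297, 108 and 29.1 CPM, Perm1 (a regulator of mitochondrial genes in muscle) at 176, 269, 119 and 78.0 CPM, and Fndc5 (the precursor of irisin) at 90.1, 162, 48.1 and 25.2 CPM. Lars2, the mitochondrial leucyl-tRNA synthetase, ran the other way, at 2068, 499, 2799 and 3449 CPM. Whether Lars2 shares sequence with other transcripts, such as the unlisted mitochondrial ribosomal RNAs, was not looked at. Its counts may therefore not all be its own. Ppp1r3c, a glycogen-targeting phosphatase subunit, was at 289, 367, 842 and 416 CPM, highest in control 3, and Pfkfb3, which makes the activator of phosphofructokinase, at 419, 112, 315 and 780 CPM. None of these patterns was tested.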
